A study of Mus musculus with 12 samples.

Results

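Alternative activation is the program that interleukin 4 (IL4) starts in macrophages, and 9 genes used to recognize it were followed through all libraries of the dataset: Il4ra, Egr2, Myc, Tgm2, Arg1, Chil3, Retnla, Mrc1 and Mgl2. They were selected by symbol from the unnormalized count matrix, and each symbol matched 1 row, a protein-coding gene counted over all its exons. They are 9 of 56748 genes listed, and all 9 were among the 15033 genes that passed the filter on low counts.

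The macrophages were bone marrow-derived macrophages (BMDM) of C57BL/6J mice, grown with 20 ng/mL of macrophage colony-stimulating factor and polarized to an M2-like state with 10 ng/mL IL4 for 48 hours. Every group received that treatment, and each was then cultured for a further 72 hours in 1 of 4 media, with 3 libraries per group from 3 mice per condition. The control group received unsupplemented medium. The rIFNβ group received recombinant IFNβ at 1500 pg/mL. The Ifnb1eGFP supernatant (sn) group received medium conditioned by YUMM5.2 Ifnb1eGFP cells, a mouse melanoma line carrying a lentiviral, doxycycline-inducible cassette with Ifnb1 and eGFP, diluted to 1500 pg/mL IFNβ. The eGFP sn group received medium of YUMM5.2 cells with the eGFP cassette alone at the same dilution. Both kinds of donor cell had been kept in 1 μg/mL doxycycline for 72 hours. IL4 is not listed for the last 72 hours, and no group without IL4 polarization was analysed here, so the data show how these genes stood after IL4 and not how far IL4 had induced them.

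IL4 binds the receptor chain encoded by Il4ra, which pairs with the common gamma chain, and the JAK kinases on these chains phosphorylate STAT6, a transcription factor that enters the nucleus and switches on its target genes. Among the classical mouse targets are the arginine-degrading enzyme Arg1, the secreted proteins RELMα (Retnla) and Ym1 (Chil3), and the surface lectins CD206 (Mrc1) and CD301b (Mgl2). IFNβ acts through another receptor and switches on the interferon-stimulated genes.

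The proximal promoters of 4 of the genes are shown because they represent the outcomes described below: Retnla and Mrc1 did not pass the test under IFNβ, Chil3 rose and Egr2 fell. The RefSeq promoter table, on GRCm38.p6, held entries for 6 of the 9 genes (Retnla, Chil3, Mrc1, Mgl2, Egr2 and Il4ra), not for Arg1, Myc or Tgm2, and each entry for these 6 matched GRCm39 exactly at 1 place. The stretches end at the base before the annotated gene and lie on GRCm39 at chr16:48662722-48662894 (plus strand, Retnla), chr3:106074881-106075130 (minus strand, Chil3), chr2:14233975-14234150 (plus strand, Mrc1) and chr10:67371079-67371304 (plus strand, Egr2). Capitals mark the 1 motif that was found, in Retnla.
Retnla: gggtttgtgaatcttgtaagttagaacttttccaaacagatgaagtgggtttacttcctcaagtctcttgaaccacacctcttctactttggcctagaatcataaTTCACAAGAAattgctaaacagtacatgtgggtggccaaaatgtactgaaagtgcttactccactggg
Chil3: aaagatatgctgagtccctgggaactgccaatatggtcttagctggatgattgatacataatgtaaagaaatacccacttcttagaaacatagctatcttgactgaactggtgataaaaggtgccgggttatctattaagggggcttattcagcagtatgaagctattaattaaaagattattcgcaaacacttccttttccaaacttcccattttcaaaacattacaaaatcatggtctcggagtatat
Mrc1: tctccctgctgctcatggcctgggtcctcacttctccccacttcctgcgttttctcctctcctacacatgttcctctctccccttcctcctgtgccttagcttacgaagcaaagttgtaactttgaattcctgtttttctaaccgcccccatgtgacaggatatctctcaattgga
Egr2: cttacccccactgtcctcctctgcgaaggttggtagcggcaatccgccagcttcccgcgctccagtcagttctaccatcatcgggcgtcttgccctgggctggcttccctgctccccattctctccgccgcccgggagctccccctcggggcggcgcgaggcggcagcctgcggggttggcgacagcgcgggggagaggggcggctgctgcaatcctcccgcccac

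A window from 250 bases before to 50 bases after each start in the table was searched on both strands for 2 motifs: a STAT6-type site (TTC, 4 bases of any kind, then GAA) and an interferon response core (GAAA, 2 bases of any kind, then GAAA). The Retnla window held the STAT6-type site, at -145 from the start in the table. The 250 bases before that start end at chr16:48662971, inside the annotated gene, so the offset is not counted from the end of the printed stretch. The windows of the other 5 genes, including all 5 Egr2 starts in the table, held neither motif, which says only that these letters are not in these windows. Of the 32851 promoters searched, 6.95% held the first motif and 3.44% the second. They were the full-length entries of the table, with the entries of a single chromosome left out.

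Library totals ranged from 31526034 to 45348457 expected counts. All 7 macrophage markers checked (Adgre1, Csf1r, Cd68, Fcgr1, Mertk, Itgam, Lyz2) exceeded 10 CPM (counts scaled to a common library size) in each group. Their summed level was 14100 to 15300 CPM in control and 17900 to 18500 CPM with eGFP sn, against 10300 to 10600 CPM with Ifnb1eGFP sn and 9650 to 9820 CPM with rIFNβ. The markers did not move together: in both IFNβ comparisons 4 of the 7 were called higher (Adgre1, Cd68, Mertk and Fcgr1) and 2 lower, Itgam (to 25.3% and 22.2%) and Lyz2, the most abundant of them (to 33.2% and 36.9%). Markers of other cells were low. The 8 neutrophil markers summed to 4.36 to 5.91 CPM without IFNβ and to 0.297 to 1.09 CPM with it. Only 1 of the 8 passed the filter, S100a8, which carried the fall (mean 5.03 CPM in control, 0.272 CPM with rIFNβ). The 6 dendritic cell markers summed to 1.24 to 1.71 CPM without IFNβ and to 0.273 to 0.505 CPM with it. Only 1 of the 6 passed the filter, Zbtb46, which carried that fall (mean 1.36 CPM in control, 0.289 CPM with rIFNβ). The remaining markers of both sets were too low to read a direction. The 5 lymphocyte markers summed to at most 0.351 CPM, the 5 basophil, mast cell and eosinophil markers to at most 0.733 CPM and the 5 melanoma markers to at most 0.81 CPM. The 5 fibroblast markers summed to 30.5 to 84 CPM without IFNβ and to 50.4 to 79.5 CPM with it, with Dcn called higher (3.48-fold and 2.54-fold) and Col1a1 called lower (to 49.1% and 47.4%) in the Ifnb1eGFP sn and rIFNβ comparisons. The part of these other cells in the results was not tested.

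All 7 interferon-stimulated genes checked were higher in both IFNβ comparisons, among them Irf7, Ifit3 and Ifit1. eGFP sn replicate 2 stood apart from its group in these genes, with Irf7 at 45.2 CPM against 11.01 and 6.63 CPM in replicates 1 and 3, and Ifit1 at 57.5 CPM against 10.5 and 3.24 CPM. In the IFNβ-treated libraries Irf7 was at 1333 CPM or more and Ifit1 at 637 CPM or more. Without that library 5 of the 9 genes still passed the test in Ifnb1eGFP sn against eGFP sn. Their log2 fold changes were -3.18 for Egr2, -1.35 for Myc, 0.77 for Chil3, 0.91 for Il4ra and 1.44 for Tgm2, close to the values with it given below. The library also enters the comparison of eGFP sn with control and the interaction.

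IFNβ, whether from melanoma cells or recombinant, divided the 9 genes. The transcription factor genes Egr2 and Myc fell, the receptor gene Il4ra, the transglutaminase gene Tgm2 and the lectin gene Chil3 rose, and Mrc1, Retnla, Mgl2 and Arg1 did not pass the test. The question put to each gene was whether its level differed between Ifnb1eGFP sn and eGFP sn, and between rIFNβ and control. These comparisons share no library, but they do share the fit and its estimate of the spread. In bulk RNA, fewer cells of a type and less RNA per cell cannot be told apart. Calls rest on the quasi-likelihood test of edgeR, with p-values adjusted over all 15033 genes by the Benjamini-Hochberg method and a threshold of 0.05. By that rule 5 of the 9 genes were called in each comparison, near the 55.1% and 55.3% called among all genes tested.

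**Figure D1:**
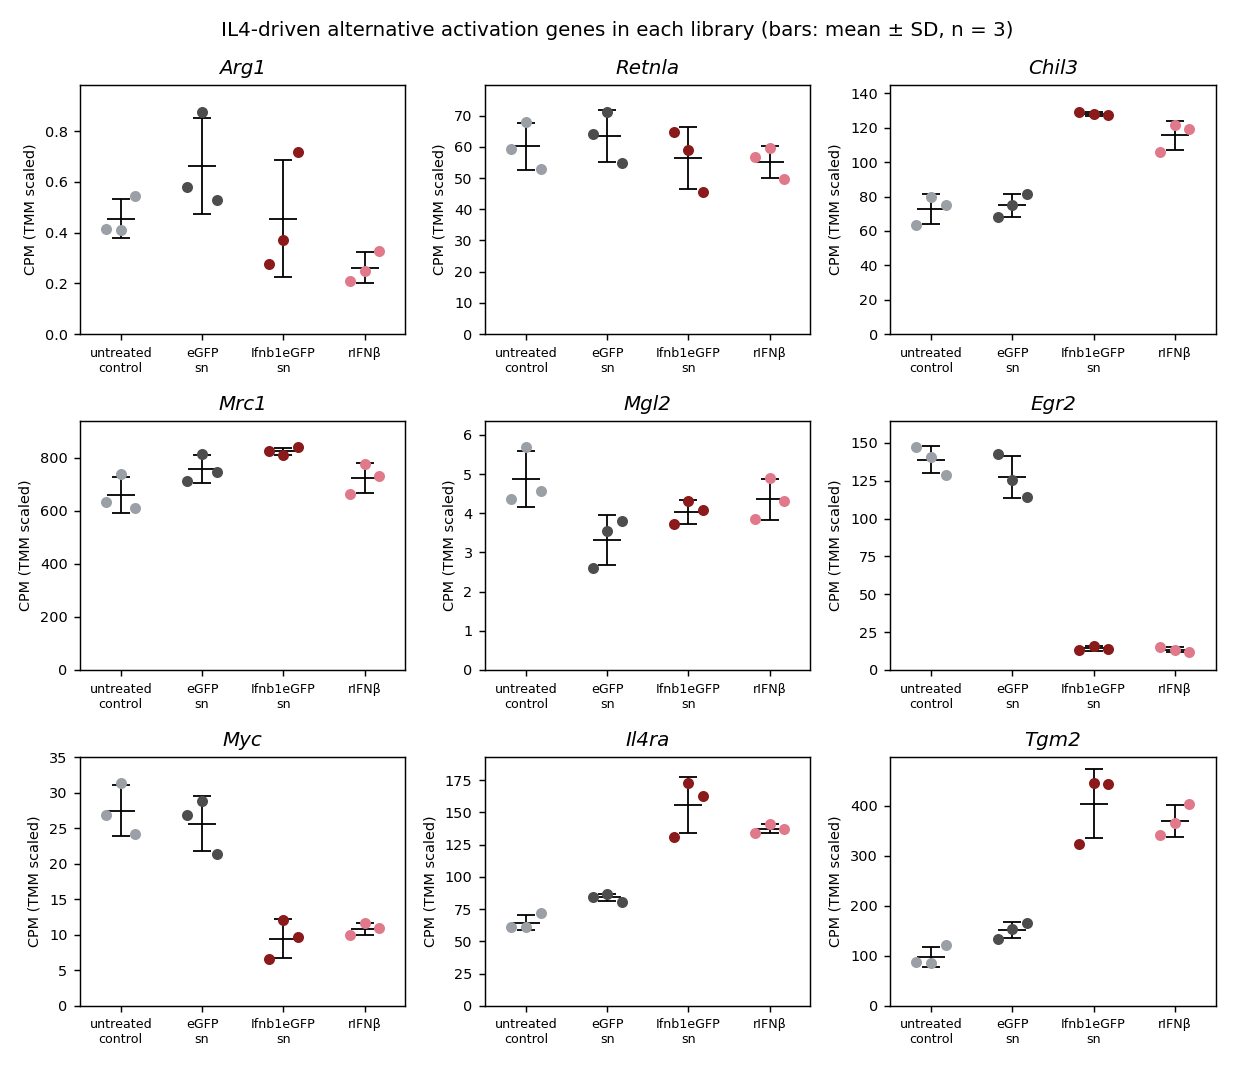
Level of each gene in CPM (y axis, from 0, a separate scale for each gene) in the 3 libraries of each of the 4 groups (x axis; sn, supernatant). Points are libraries, and bars show the mean and SD (n = 3). Egr2 and Myc lie lower and Chil3, Il4ra and Tgm2 lie higher in all 6 IFNβ-treated libraries than in the other 6.

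Il4ra encodes the ligand-binding chain of the IL4 receptor and lies at chr7:125151079-125182844 (GRCm39, plus strand, as for the other positions unless stated). Its level was 61.3, 60.7 and 71.7 CPM in the 3 control libraries, 84.5, 86.7 and 80.9 CPM with eGFP sn, 131, 173 and 163 CPM with Ifnb1eGFP sn and 134, 141 and 137 CPM with rIFNβ. All 6 IFNβ-treated libraries exceeded all 6 others, and the eGFP sn libraries exceeded the control libraries. Il4ra rose 1.85-fold with Ifnb1eGFP sn over eGFP sn (log2 fold change 0.89, SE 0.0936, adjusted p = 8.97e-06) and 2.12-fold with rIFNβ over control (1.09, SE 0.0944, adjusted p = 1.7e-06).

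Egr2 (chr10:67371305-67378018) encodes a zinc-finger transcription factor induced by IL4 in macrophages. Its level was 147, 141 and 129 CPM in control, 142, 125 and 115 CPM with eGFP sn, 12.9, 15.9 and 13.9 CPM with Ifnb1eGFP sn and 14.9, 13.4 and 11.98 CPM with rIFNβ. The highest IFNβ-treated library lay far under the lowest library without IFNβ. Egr2 fell to 11.2% of the eGFP sn level (95% interval 9.44% to 13.2%, log2 fold change -3.16, SE 0.109, adjusted p = 1.4e-09) and to 9.65% of the control level (8.15% to 11.4%, log2 fold change -3.37, SE 0.111, adjusted p = 8.34e-10). It ranked 90th and 86th of the 15033 genes by p-value, and it was the only one of the 9 genes past the stricter thresholds of the study's methods, a log2 fold change of at least 2 in size with an adjusted p of at most 0.01. Those thresholds were passed by 5.39% of all genes tested with Ifnb1eGFP sn and by 5.77% with rIFNβ.

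Myc (chr15:61857227-61862223) encodes a transcription factor that drives growth and metabolism and is itself an IL4 target in macrophages. Its level was 26.9, 31.4 and 24.3 CPM in control, 26.8, 28.9 and 21.3 CPM with eGFP sn, 6.60, 12.1 and 9.69 CPM with Ifnb1eGFP sn and 9.94, 11.6 and 10.9 CPM with rIFNβ. The groups with and without IFNβ did not overlap. Myc fell to 36.9% of the eGFP sn level (27.7% to 49.2%, log2 fold change -1.44, SE 0.189, adjusted p = 5.37e-05) and to 39.4% of the control level (29.6% to 52.5%, log2 fold change -1.34, SE 0.188, adjusted p = 8.76e-05).

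Tgm2 (chr2:157958322-157988359, minus strand) encodes transglutaminase 2, an enzyme that cross-links proteins and serves as a marker of alternative activation in mouse and human macrophages. Its level was 87.5, 84.8 and 121 CPM in control, 133, 154 and 165 CPM with eGFP sn, 324, 445 and 443 CPM with Ifnb1eGFP sn and 341, 365 and 402 CPM with rIFNβ. The IFNβ-treated libraries all lay above the others, and the eGFP sn libraries above the control libraries. Tgm2 had the largest rise of the 9 genes, 2.68-fold over eGFP sn (log2 fold change 1.42, SE 0.157, adjusted p = 1.3e-05) and 3.77-fold over control (1.92, SE 0.159, adjusted p = 1.19e-06). The expected count of Tgm2 was not whole in any of the 12 libraries, so some of its reads were divided. Of the stretches of 50 bases in its longest transcript, 0 also occur in another gene.

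Chil3 (chr3:106054870-106074880, minus strand) encodes the chitinase-like protein Ym1, which macrophages secrete. Its level was 63.2, 79.9 and 75.2 CPM in control, 68.4, 74.9 and 81.5 CPM with eGFP sn, 129, 128 and 127 CPM with Ifnb1eGFP sn and 106, 122 and 119 CPM with rIFNβ. Groups with and without IFNβ did not overlap. Chil3 rose 1.71-fold over eGFP sn (log2 fold change 0.77, SE 0.0883, adjusted p = 1.73e-05) and 1.59-fold over control (0.67, SE 0.0885, adjusted p = 5.55e-05). Of the 50-base words in Chil3 transcripts, 27.7% also occur in another gene, mostly its near-copy Chil4, so reads could be divided between them. The expected count of Chil3 was not whole in 11 of the 12 libraries. Adding the Chil4 counts to Chil3, an alternative chosen after the data were seen, ended neither call. Chil4 was given at most 0.0675 CPM in any library, so the sum could hardly differ from Chil3 alone and is no separate check.

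The other 4 genes did not pass the test in either IFNβ comparison, which does not show that they were unchanged, so the interval of each difference is given. Mrc1 (chr2:14234151-14336926), the mannose receptor CD206, was 632, 739 and 609 CPM in control, 711, 813 and 748 CPM with eGFP sn, 825, 811 and 839 CPM with Ifnb1eGFP sn and 662, 775 and 732 CPM with rIFNβ. The groups overlapped in both comparisons. Mrc1 stood at 109% of the eGFP sn level (95% interval 96.4% to 123%, adjusted p = 0.218) and at 110% of the control level (96.9% to 124%, adjusted p = 0.193). Without control replicate 2, the highest of its group, Mrc1 was called higher with rIFNβ (log2 fold change 0.22, adjusted p = 0.0312).

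Retnla (chr16:48662895-48664824) encodes the secreted protein RELMα. Its level was 59.4, 68.05 and 53.0 CPM in control, 64.2, 71.3 and 54.7 CPM with eGFP sn, 64.7, 58.8 and 45.4 CPM with Ifnb1eGFP sn and 56.6, 59.5 and 49.6 CPM with rIFNβ. The groups overlapped in both comparisons. Retnla stood at 88.8% of the eGFP sn level (71.7% to 110%, adjusted p = 0.323) and at 91.9% of the control level (74.1% to 114%, adjusted p = 0.492).

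Mgl2 (chr11:70020954-70028376) encodes the galactose-type lectin CD301b. Its level was 4.355, 5.68 and 4.57 CPM in control, 2.60, 3.56 and 3.79 CPM with eGFP sn, 3.72, 4.32 and 4.08 CPM with Ifnb1eGFP sn and 3.86, 4.90 and 4.32 CPM with rIFNβ. The IFNβ-treated libraries overlapped the others in both comparisons. Mgl2 stood at 122% of the eGFP sn level (95.8% to 155%, adjusted p = 0.148) and at 89.8% of the control level (70.9% to 114%, adjusted p = 0.428). Mgl2 shares 15.9% of its 50-base words with other genes, mostly its neighbor and relative Clec10a, and its expected count was not whole in any of the 12 libraries, so its own level is uncertain. With the Clec10a counts added, an alternative chosen after the data were seen, the pair was called higher in both comparisons, at log2 fold changes of 0.38 (adjusted p = 0.0211) and 0.38 (adjusted p = 0.0199). Clec10a was the more abundant of the pair (6.52 against 3.32 CPM with eGFP sn) and was itself called higher in both comparisons. The sum thus largely carries Clec10a and does not show a rise of Mgl2.

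Arg1 (chr10:24791118-24803817, minus strand), the enzyme that turns arginine into ornithine and urea, was at low counts in these macrophages. Its expected counts were 13, 14 and 23 in control, 23, 36 and 21 with eGFP sn, 11, 15 and 33 with Ifnb1eGFP sn and 7, 11 and 13 with rIFNβ, and its level was between 0.208 and 0.877 CPM in the 12 libraries. The rIFNβ libraries all lay below the control libraries, whereas the supernatant groups overlapped. Arg1 stood at 69.7% of the eGFP sn level (41% to 118%, adjusted p = 0.228) and at 57.5% of the control level (31.7% to 104%, adjusted p = 0.106). The log2 fold change in the first comparison, -0.52, depended on single libraries: without Ifnb1eGFP sn replicate 3 it was -1.02 and called (adjusted p = 0.0275), and without eGFP sn replicate 2 it was -0.27 (adjusted p = 0.605). With the compared conditions fitted alone, the second was called as well (log2 fold change -0.83, adjusted p = 0.0424). Counts this low leave a wide range of changes undetectable at this depth.

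Counted together, 5 of the 9 genes were called in each IFNβ comparison, the same 5 in the same direction, and 4 in neither. Of all genes tested, 55.1% were called with Ifnb1eGFP sn against eGFP sn and 55.3% with rIFNβ against control, so the share among the 9 was near that of all genes. The 3 genes that rose compare with 30.1% and 30.7% of all genes, and the 2 that fell compare with 25% and 24.6%. The libraries of the compared groups were fully separated for 5 genes with Ifnb1eGFP sn and for 6 with rIFNβ, Arg1 being the additional one. Of all genes, 59% and 66.1% were fully separated. The median log2 fold change of the 9 genes was 0.12 and -0.12, against 0.03 and 0.04 over all genes tested.

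**Figure D2:**
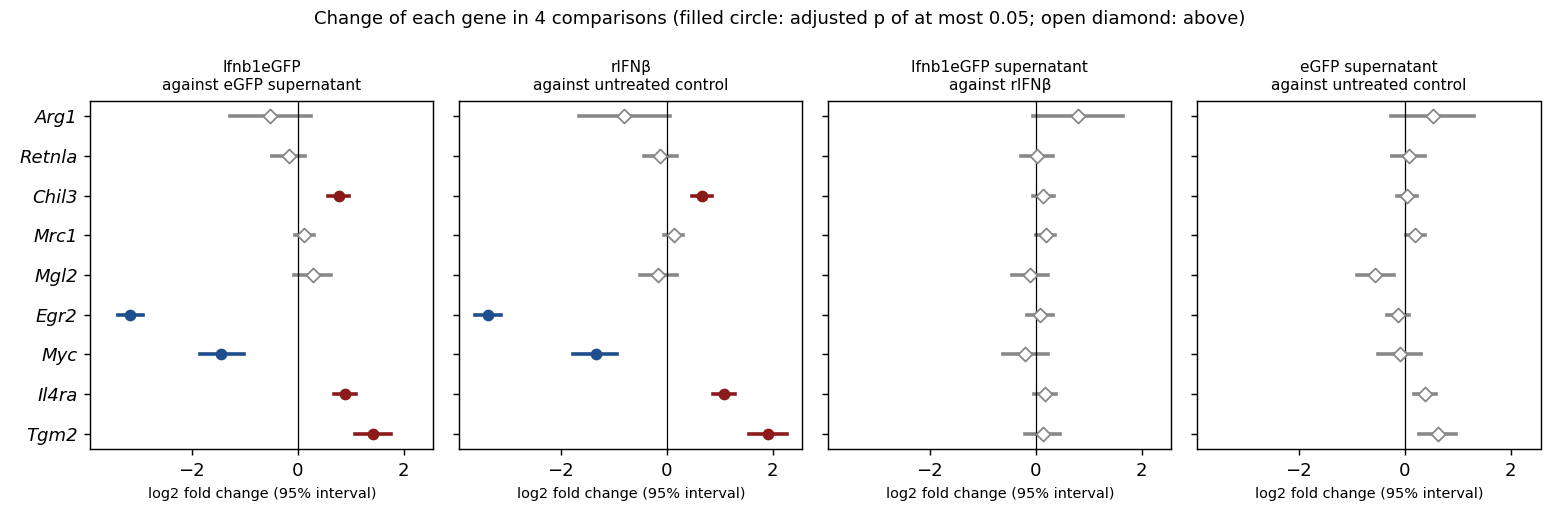
log2 fold change (x axis) with its 95% interval for each of the 9 genes (y axis) in 4 comparisons, 1 per panel. Filled circles mark an adjusted p of at most 0.05 (red higher, blue lower) and open diamonds the rest. In the first 2 panels Egr2 lies at -3.16 and -3.37 and Tgm2 at 1.42 and 1.92, and the last 2 panels hold no filled circle.

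The source of IFNβ made no difference that passed the test. Between Ifnb1eGFP sn and rIFNβ, given at the same IFNβ concentration, 0 of the 9 genes were called by edgeR or by DESeq2, and 1 of them, Mrc1, had an unadjusted p under 0.05. Of all genes, 0.16% were called in this comparison by edgeR and 8.57% had an unadjusted p under 0.05. The intervals were narrow for Egr2, at 106% of the rIFNβ level (89.8% to 125%), for Chil3 at 111% (96.9% to 127%), for Il4ra at 113% (98.5% to 131%), for Tgm2 at 109% (86.6% to 138%) and for Retnla at 102% (82.2% to 126%). They were wider for Myc, at 87.4% (65.2% to 117%), and widest for Arg1, at 175% (97.2% to 314%). Mrc1 stood at 114% (101% to 129%, adjusted p = 0.58), and its libraries, like those of Chil3, did not overlap between the groups, as was so for 12.8% of all genes.

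Melanoma supernatant without IFNβ was compared with unsupplemented medium to show the background of the conditioned medium. Here 0 of the 9 genes were called by edgeR, against 0.299% of all genes, but 4 had an unadjusted p under 0.05, against 8% of all genes, and DESeq2 called 2, against 1.62% of the genes to which it gave an adjusted p. Il4ra stood at 130% of the control level (113% to 150%, adjusted p = 0.179) and Tgm2 at 154% (121% to 195%, adjusted p = 0.18), with no overlap of libraries in either case. DESeq2 called both, at adjusted p = 0.00869 for Il4ra and 0.0066 for Tgm2. Mgl2 stood at 68.2% (53.7% to 86.7%, adjusted p = 0.268), also without overlap, which was seen for 15.5% of all genes, and Mrc1 at 115% (102% to 130%, adjusted p = 0.556). The eGFP sn group here includes replicate 2, which stood apart in the interferon-stimulated genes. Without that library the log2 fold change was 0.355 for Il4ra (adjusted p = 0.514), beside 0.378 with it. For Tgm2 it was 0.605 (adjusted p = 0.503), beside 0.622. For Il4ra and Tgm2, control was the lower of the 2 reference levels used for IFNβ.

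The difference between the IFNβ effect in supernatant and that of the recombinant protein was tested as an interaction, which called 0% of all genes and 0 of the 9 by edgeR or DESeq2. Tgm2 alone had an unadjusted p under 0.05, against 4.4% of all genes, with a rise that was smaller in supernatant by a log2 difference of -0.49 (SE 0.218, adjusted p = 0.926). For Egr2 the difference was 0.21 (SE 0.146, adjusted p = 0.926) and for Il4ra -0.20 (SE 0.132, adjusted p = 0.926).

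Levels of different genes were compared per kilobase of exon. In control macrophages Retnla (97.4 CPM per kb) and Mrc1 (84.3 CPM per kb) were the most abundant and overlapped each other, followed by Chil3 (41.6) and Egr2 (40.8), which overlapped as well, and then by Tgm2 at 20.5, Myc at 10.1, Il4ra at 6.47, Mgl2 at 2.12 and Arg1 at 0.143 CPM per kb. With Ifnb1eGFP sn the order was Mrc1 (105.4 CPM per kb), Retnla (91.1) and Tgm2 (84.5), each overlapping the next, then Chil3 (73.2), which overlapped Tgm2, Il4ra (15.6), Egr2 (4.17) and Myc (3.465), which overlapped, Mgl2 (1.76) and Arg1 (0.143). Between these 2 groups, which differ in supernatant as well as in IFNβ, Tgm2 moved from the level of a middle member to that of Retnla. Egr2 moved from the level of Chil3 to that of Myc. With eGFP sn Tgm2 already stood at 31.5 CPM per kb and overlapped Egr2 (37.4), which overlapped Chil3 (42.8). With rIFNβ Tgm2 stood at 77.2 CPM per kb and overlapped no gene below it, and Egr2 (3.94) lay beside Myc (3.96). With the longest transcript as the length instead, Mrc1 stood first in every group. The 9 genes made up 0.108% to 0.12% of all counts in control, 0.121% to 0.133% with eGFP sn, 0.151% to 0.167% with Ifnb1eGFP sn and 0.133% to 0.15% with rIFNβ.

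**Figure D3:**
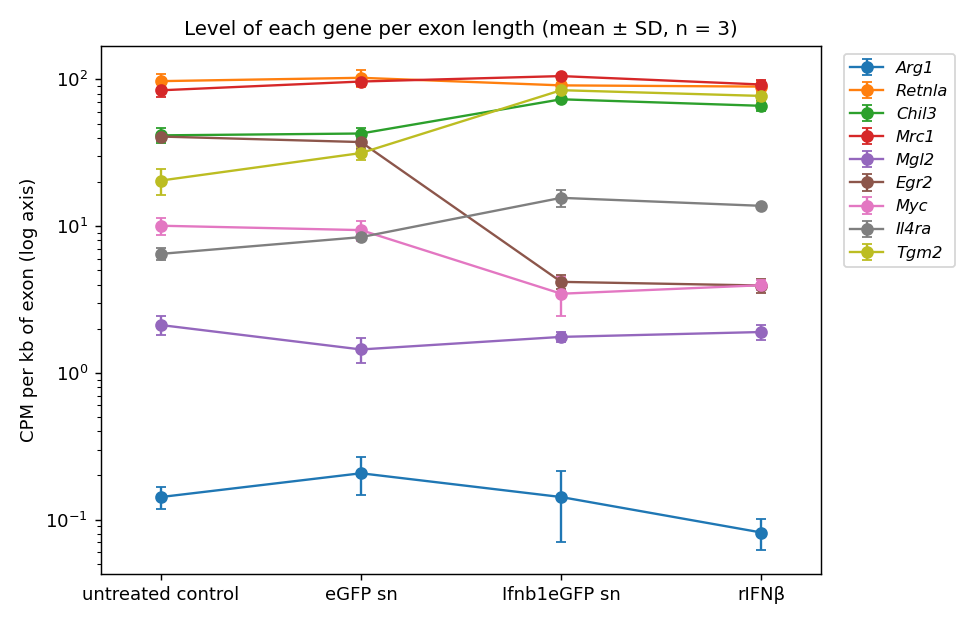
Level of the 9 genes in CPM per kilobase of exon (y axis, log scale) in the 4 groups (x axis). Points are means and bars SDs (n = 3), and the lines only join points of 1 gene. Egr2 drops from beside Chil3 (41.6 in control) to beside Myc (3.465 with Ifnb1eGFP sn). Tgm2 lies at 20.5 in control, 31.5 with eGFP sn, 84.5 with Ifnb1eGFP sn and 77.2 with rIFNβ.

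Other genes of the pathway were counted in 3 lists, to be read beside the 55.1% and 55.3% of all genes called. Of all genes tested, 30.1% rose and 25% fell with Ifnb1eGFP sn, and 30.7% rose and 24.6% fell with rIFNβ. The receptor and signaling list mixes ligands, receptor chains, kinases, STAT6 and adaptors with negative regulators, and more of its genes rose than fell. Those that rose with Ifnb1eGFP sn were Il2rg, Jak3, Stat6 and the negative regulators Socs1, Ptpn6 and Cish. Of the 13 tested of 15 listed, 6 rose and 1 fell with Ifnb1eGFP sn, and 6 rose and 3 fell with rIFNβ, with median log2 fold changes of 0.33 and 0.31 beside 0.03 and 0.04 over all genes tested. Stat6, which carries the IL4 signal, rose modestly, from 266 ± 7.28 CPM with eGFP sn to 334 ± 5.77 CPM with Ifnb1eGFP sn (SD, n = 3, log2 fold change 0.33, adjusted p = 1.8e-05), and by 0.31 with rIFNβ. Jak3, the kinase bound to the common gamma chain, rose by 0.75 and 1.15 on the log2 scale. Ptpn6, the phosphatase SHP-1, rose by 0.78 and 0.81, and Socs1, which blocks JAK kinases, by 2.04 and 2.60 from only 0.357 ± 0.113 CPM with eGFP sn. Irs2, an adaptor on the IL4 receptor, fell by 0.52 and 0.61.

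Among the transcription factors of alternative activation more fell than rose. Of the 10 listed and tested, 2 rose and 7 fell with Ifnb1eGFP sn, and 2 rose and 5 fell with rIFNβ, with median log2 fold changes of -1.03 and -0.69. Bhlhe40, a basic helix-loop-helix factor, had the deepest fall, from 126 ± 16.2 CPM with eGFP sn to 16.4 ± 0.329 CPM with Ifnb1eGFP sn (SD, n = 3, log2 fold change -2.94, adjusted p = 8.3e-10), and by -3.13 with rIFNβ. Nab2, a corepressor of EGR proteins, changed by -1.39 and -1.47, Batf3 by -1.43 and -1.06, and Irf4, a STAT6 target, by -1.25 and -1.02. Pparg, the fatty-acid-sensing nuclear receptor, rose by 1.01 and 0.82, and Maf by 0.48 and 0.60.

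Of the other IL4-induced genes, 17 of 23 were tested. In each IFNβ comparison 3 rose and 12 fell, with median log2 fold changes of -0.68 and -0.72. Fn1, encoding fibronectin, dropped from 500.2 ± 22.7 CPM with eGFP sn to 25.5 ± 7.42 CPM with Ifnb1eGFP sn (SD, n = 3, log2 fold change -4.29, adjusted p = 7.7e-08), and changed by -4.57 with rIFNβ. Matk, a tyrosine kinase gene, changed by -2.83 and -2.63, and F13a1, the A chain of coagulation factor XIII and a further transglutaminase, by -3.54 and -2.32 from 1.32 ± 0.0814 CPM with eGFP sn. The F13a1 value with rIFNβ ranged from -3.28 without rIFNβ replicate 1 to -1.75 without rIFNβ replicate 2. Clec10a, the relative of Mgl2, rose by 0.42 and 0.67, Tfec by 0.48 and 0.34, and Rnase2a by 1.87 and 2.41 from 0.308 ± 0.0432 CPM with eGFP sn. The Clec10a call in supernatant was lost without eGFP sn replicate 1 (adjusted p = 0.0631) or 3 (0.0633), or without Ifnb1eGFP sn replicate 1 (0.078).

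**Figure D4:**
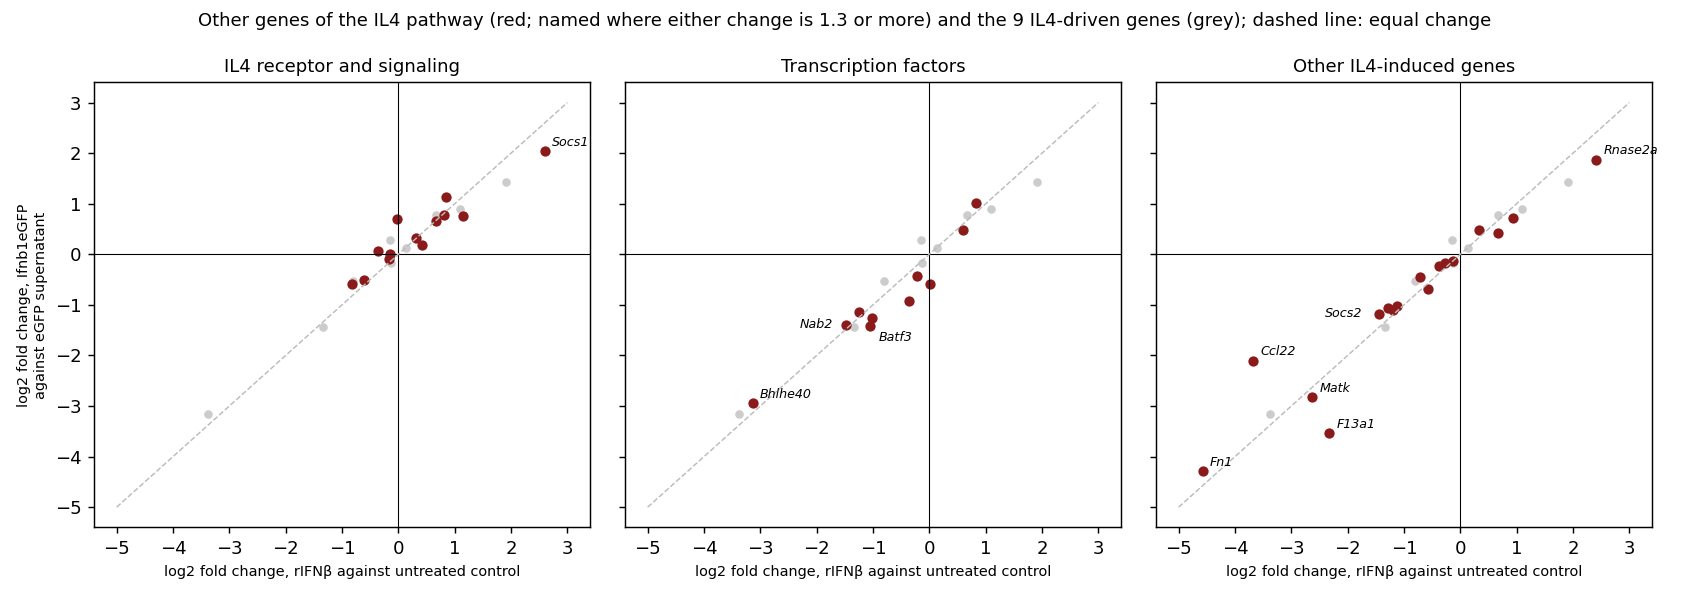
log2 fold change with Ifnb1eGFP sn against eGFP sn (y axis) and with rIFNβ against control (x axis) for 3 lists of other IL4 pathway genes (red points, 1 list per panel), with the 9 genes as grey points and a dashed line of equal change. In the transcription factor panel Bhlhe40 lies at -2.94 and -3.13, and in the last panel Fn1 lies at -4.29 and -4.57.

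Family members of the 9 genes did not all share their changes. Egr3, a zinc-finger factor of the Egr2 family, fell by 2.11 with Ifnb1eGFP sn and by 1.82 with rIFNβ on the log2 scale, from 1.93 ± 0.218 CPM with eGFP sn and 1.46 ± 0.116 CPM in control (SD, n = 3). Egr1 stood at -0.36 (adjusted p = 0.065) and -0.52 (adjusted p = 0.013). The first was called with DESeq2 (0.0292), RLE factors (0.0384), no filter (0.0242) and without Ifnb1eGFP sn replicate 2 (0.0237), and the second call was lost without control replicate 2 (adjusted p = 0.0512) or rIFNβ replicate 1 (0.055). Mrc2, a relative of Mrc1, stood at 0.55 (adjusted p = 0.2) and 0.20 (adjusted p = 0.64). Tgm1, a relative of Tgm2, was called with Ifnb1eGFP sn (0.89, adjusted p = 0.017) and not with rIFNβ (0.41, adjusted p = 0.28), a difference not tested beyond the interaction (adjusted p = 0.93). Its call was lost with DESeq2 (adjusted p = 0.0947), without a filter (0.0712), with the compared conditions alone (0.0614), and without eGFP sn replicate 2 (adjusted p = 0.0534), eGFP sn replicate 3 (0.0557) or Ifnb1eGFP sn replicate 2 (0.085).

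The genes whose profiles over the 12 libraries were most like those of the 9 were found by Pearson's r of log2 CPM. The points share libraries and depth, and the r values are given as a description. Egr2, Myc, Il4ra, Tgm2 and Chil3 each had a high r with very many genes, so the genes named for them are not particular partners. For genes that separate the libraries with and without IFNβ, r was high: 0.999 for both Stac2 and Myo1e with Egr2, 0.997 for Tubb5 and 0.993 for Tubb6 with Myc, 0.995 for Ncf1 and 0.991 for Abcc3 with Il4ra, 0.993 for Zfp36l1 and 0.992 for Abcc3 with Tgm2, and 0.99 for Gm6483 and Gm6634 with Chil3. For the other 4 it was lower, with 0.96 for Tal1 and 0.926 for Serpinb6a with Mrc1, 0.935 for Zfp970 and 0.888 for Zfp971 with Retnla, 0.901 for Rab26os and 0.885 for Smim3 with Arg1, and 0.866 for Snx22 and 0.835 for Dpep2 with Mgl2.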

How the data were processed

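Total RNA of 12 BMDM cultures was sequenced after TruSeq Stranded Total RNA library preparation. The authors aligned and counted reads with RSEM 1.3.3 and deposited 1 table of expected counts per gene, unnormalized and named by Ensembl identifiers, in which 12% of all values were not whole. The reference is given as GRCm39 mm10, a name that mixes 2 builds, so coordinates given here come from GENCODE M39 on GRCm39, where 56017 of the 56748 identifiers were found. The annotation, gene lengths, shared 50-base words and promoter positions rest on that release.

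Expected counts were rounded, filtered with filterByExpr and scaled by TMM, and 1 quasi-likelihood model over the 12 libraries was fitted in edgeR 4.0.16 (R 4.3.3) with the 4 conditions as groups, with p-values adjusted by the Benjamini-Hochberg method over 15033 genes. CPM were scaled by TMM. SEs are the log2 fold change divided by the square root of F. The fit was tested on simulated data, but no result of that test is given here. Library totals (31526034 to 45348457) limit precision for Arg1. Labels put all libraries in a group and state 3 mice per condition. No pair of libraries agreed within sampling noise.

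The deposited table held no column outside the 12 samples. The 9 genes and the pathway, family and marker lists were chosen with earlier results of these data known. Genes named from the lists were the 3 with the largest rise and the 3 with the largest fall among those called in Ifnb1eGFP sn against eGFP sn, plus Stat6, Irf4, Pparg and Clec10a, tested relatives of the 9, 2 profile neighbors per gene, and markers above 10 CPM. Alternatives were DESeq2 1.42.0, RLE factors, no filter, only the compared conditions, a replicate block, 2 stricter thresholds, each library left out and, chosen after the data were seen, summed counts of Mgl2 with Clec10a and of Chil3 with Chil4. A marker, an interferon-stimulated gene and a promoter motif planned for these lists are not reported here.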

Additional observations from a re-analysis of the deposited data

How the results depend on the processing

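Egr2, Myc, Il4ra, Tgm2 and Chil3 kept their direction and their call in both IFNβ comparisons under RLE factors, DESeq2, no filter, the compared conditions alone, the replicate block and each library left out. With a log2 fold change of at least 1 in size, 3 of the 9 genes were called with Ifnb1eGFP sn: Egr2, Myc and Tgm2. With rIFNβ, Egr2, Myc, Tgm2 and also Il4ra (log2 fold change 1.09) were called at that size. Under the stricter thresholds of the study's methods 1, Egr2, was called in each IFNβ comparison. For eGFP sn against control, where 0 were called, DESeq2 called 2, the fit without a filter 2 (Il4ra at adjusted p = 0.0375 and Tgm2 at 0.0186) and the replicate block 1 (Tgm2, 0.022); the cause was not tested. DESeq2 called 4 of the 7 interferon-stimulated genes in each IFNβ comparison and gave the other 3 no adjusted p. The receptor and signaling genes that fell with Ifnb1eGFP sn numbered 2 instead of 1 with RLE factors, DESeq2, the replicate block or without Ifnb1eGFP sn replicate 1, and with rIFNβ 5 instead of 3 when the compared conditions were fitted alone. With each library left out, 5 to 6 genes were called in each IFNβ comparison and 0 in the other tests. Shares of all genes called were given above for the main test and for the stricter thresholds of the study's methods. For eGFP sn against control the DESeq2 share was given too. Counts under the other settings have no such share beside them.

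Replicate numbers were not stated to mark shared mice or days. Same-numbered libraries deviated together with r of 0.0892 to 0.252 for Ifnb1eGFP sn and eGFP sn, 0.0765 to 0.108 for rIFNβ and control, 0.0774 to 0.124 for eGFP sn and control, and 0.167 to 0.246 for Ifnb1eGFP sn and rIFNβ. Only the last all exceeded 0.1, and there the replicate block called 0 genes, as without it. With the block, 7 genes were called with Ifnb1eGFP sn, Mgl2 (adjusted p = 0.0376) and Retnla (0.0484) in addition, and 5 with rIFNβ. No share of all genes called with the block stands beside these counts. Of the other genes named, the block called Mrc2 (0.583, adjusted p = 0.00436) and Egr1 (adjusted p = 0.0186) with Ifnb1eGFP sn.

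Signs reversed only for values that had not been called. Summing Mgl2 and Clec10a gave 0.379 for rIFNβ against control, where Mgl2 alone was -0.15, and -0.00192 for the interaction; the Mrc1 interaction was 0.00471 with RLE factors and 0.00552 with DESeq2. With a library left out, the log2 fold change ranged from -0.0839 to 0.162 for Retnla and from -0.404 to 0.0079 for Myc between Ifnb1eGFP sn and rIFNβ; from -0.0168 to 0.174 for Retnla, -0.051 to 0.113 for Chil3 and -0.19 to 0.0195 for Myc between eGFP sn and control; from -0.218 to 0.541 for Arg1, -0.157 to 0.0861 for Retnla, -0.0964 to 0.0471 for Mrc1 and -0.307 to 0.109 for Myc in the interaction; and from -0.0702 to 0.504 for Mrc2 with rIFNβ. DESeq2 gave Arg1 no adjusted p between Ifnb1eGFP sn and rIFNβ or between eGFP sn and control.

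In the main test the p-values weigh each difference against the spread between libraries within groups. That spread was estimated in a fit shared by all groups, with 3 libraries per group. Without an IL4-free group, induction by IL4 was not measured, and Arg1 counts of 7 to 36 per library allow only large changes to be seen.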
